A study of Caenorhabditis elegans with 18 samples.

Results

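Small RNAs (sRNAs) that map to genes were compared between meg-3 meg-4 line 1 of Caenorhabditis elegans and the wild-type strain N2, both sampled as whole worms of mixed stages on NA22 bacteria at 20 C, the temperature of all groups. Line 1 carries meg-3(ax3055) with meg-4(ax3052), and N2 carries neither allele. Each strain had 2 sRNA libraries. Line 1 is 1 of 4 meg-3 meg-4 lines that were made separately. Of 42400 genes in the table, the 6821 with a mean of at least 10 RPM (reads per 1000000 mapped reads) over the 4 libraries make up the set described here. Further libraries were used beside these: mRNA of young mothers of line 1 (strain JH3475 in these labels) and of N2, grown on HT115 bacteria with the L4440 vector, and sRNAs of lines 2 (JH3672), 3 (JH3673) and 4 (JH3674), which combine the same meg-3 allele with meg-4(ax4310) in line 2, meg-4(ax4311) in line 3 and meg-4(ax4312) in line 4. A label of line 2 gives its stage as young mother and the others as mixed. The study has 18 libraries in all.

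MEG-3 and MEG-4 are intrinsically disordered proteins that form the outer shell of P granules, the RNA-protein condensates of the germ line of C. elegans. Several steps of RNA interference (RNAi) take place in or beside these granules: Argonaute proteins loaded with sRNAs recognise transcripts, RNA-dependent RNA polymerases copy those transcripts into secondary sRNAs, and the new sRNAs can be inherited by the progeny. In worms such antisense sRNAs usually accompany lower expression of a gene, although those bound by the Argonaute CSR-1 mark genes that are expressed in the germ line. MicroRNAs and piRNAs are separate sRNA classes encoded by genes of their own. Treatment of the RNA with a polyphosphatase, which the labels record, lets secondary sRNAs with a 5′ triphosphate enter the libraries.

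The line 1 libraries held 4.07 and 4.10 M reads (M for 1000000) and the N2 libraries 4.21 and 3.82 M, so that 10 RPM corresponded to 38.2 to 42.1 reads. Replicates correlated at 0.979 in line 1 and 0.958 in N2 over the genes tested, as a description. The meg genes matched the labels: sRNAs mapping to meg-4 stood at 0 and 0 RPM in line 1, against 35.1 and 49.2 RPM in N2, at least 115-fold lower with 3 reads over the line 1 pair as the floor. For meg-3 the values were 0.738 and 0 RPM in line 1, against 19.2 and 12.8 RPM in N2. MicroRNAs chosen as markers of stage were summed in each library. The mir-35 family of oocytes and embryos totalled 23309 and 16770 RPM in line 1, against 34333 and 18355 RPM in N2. The larval-timing microRNAs totalled 9472 and 11065 RPM in line 1, against 6347 and 9356 RPM in N2, with 1 of the 5 (lin-4) listed at 0 in all libraries. The neuronal pair mir-124 and lsy-6 gave 87.8 and 103 RPM in line 1, against 52.9 and 86.9 RPM in N2, and the muscle microRNA mir-1 was listed at 0 in all 4. The 2 strains overlapped in the mir-35 sums, and both line 1 libraries lay above both N2 libraries in the larval-timing and the neuronal sums. The nearest libraries were close, at 9472 and 9356 RPM and at 87.8 and 86.9 RPM. MicroRNA genes as a whole also took more of the reads in line 1 (30.0 and 32.9%) than in N2 (22.7 and 27.8%). Whether these sums differ as a share of microRNA reads was not tested. The part that stage makeup played in the results below was not tested. Whole worms were used, so fewer cells of a type and less RNA per cell cannot be told apart.

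Between these libraries the typical gene was lower in RPM in line 1 (median log2 of -0.34 over the genes tested), while microRNA genes took 30.0 and 32.9% of reads in line 1 and 22.7 and 27.8% in N2. Each library was therefore centred at the median of its tested genes, and every difference below is a relative log2: log2(RPM + 1) in line 1 minus that in N2 after this centring, with its standard error (SE) and adjusted p from limma. A gene was called higher or lower at an adjusted p below 0.05. Over all tested genes the median relative log2 was 0.07. Whether the 2 libraries of a strain came from separate cultures is not stated, and the p-values therefore cover only the spread seen here, which may be technical.

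Line 1 gained sRNAs at 456 genes (6.69% of those tested) and lost them at 385 (5.64%). These shares are the background for the counts of calls below. In RPM as deposited, the libraries of the strains did not overlap at 4476 of the 6821 tested genes, at 418 of the 456 gains and at all 385 losses. Overlap of sRNAs is judged on that scale throughout, without centring, and on it the typical gene was lower in line 1. The gains were many and mostly modest, the losses fewer and steeper: 218 of the gains and 295 of the losses reached a relative log2 of 1 in size, 59 and 127 reached 2, and 26 and 33 reached 3. Genes called higher took 15.7 and 15.1% of all reads in line 1, against 9.28 and 8.55% in N2. Those called lower took 1.31 and 1.31% in line 1, against 5.37 and 5.54% in N2. For a called gain the median level was 109 RPM in line 1 and 66.0 RPM in N2, and for a called loss it was 17.4 RPM in line 1 and 77.9 RPM in N2. The plot of mean levels shows the losses spread far below the diagonal across the whole range of N2 levels, whereas most gains lie close to it. Of the calls, 54.2% were gains, a share that was 18.1% in RPM as deposited (207 higher, 939 lower) and 44.2% with edgeR. Each library weighed on the counts: without line 1 replicate 1 or 2 they were 67 higher and 118 lower, or 106 and 192, and without N2 replicate 1 or 2 they were 379 and 398, or 786 and 356.

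**Figure D1:**
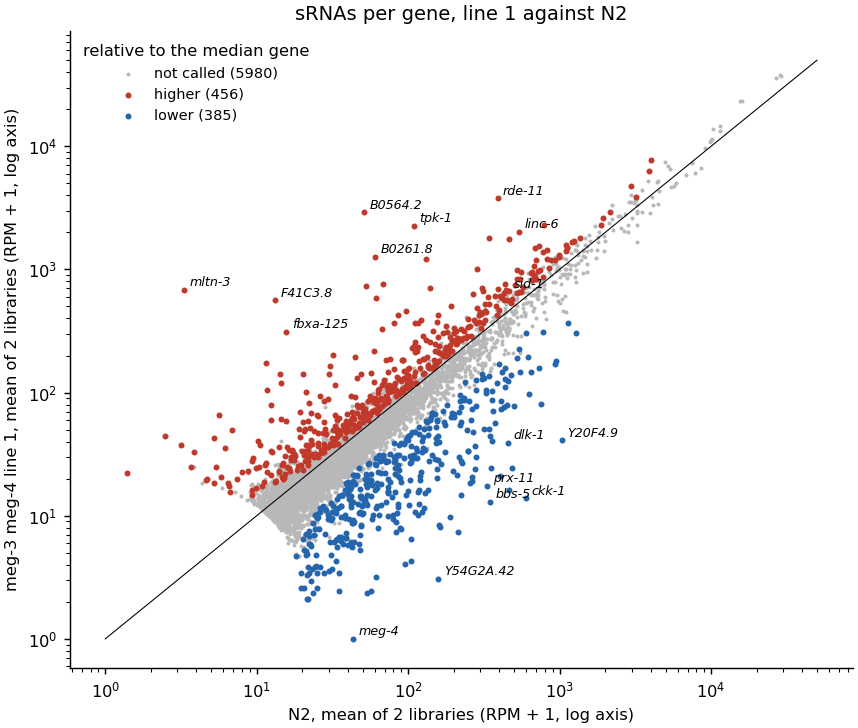
Mean sRNA level of each of the 6821 tested genes in N2 (horizontal axis) and in meg-3 meg-4 line 1 (vertical axis), in RPM + 1 on log axes, with 2 libraries a strain. Red points are the 456 genes called higher and blue points the 385 called lower relative to the median gene, the line marks equal RPM, and mltn-3, B0564.2 and rde-11 stand far above it while meg-4, Y54G2A.42 and ckk-1 stand far below.

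The study's title names genes of the RNAi machinery, and rde-11 headed them. RDE-11 is a zinc-finger protein that works with RDE-10 to promote the amplification of secondary sRNAs in RNAi by supplied double-stranded RNA. sRNAs mapping to rde-11 reached 3962 and 3573 RPM in line 1, against 418 and 359 RPM in N2 (relative log2 3.68 ± 0.13 SE, adjusted p = 0.000262). Both line 1 libraries lay far above both N2 libraries, and rde-11 moved up the order of 19582 protein-coding genes to ranks 11 and 13 in line 1, against ranks 217 and 237 in N2. B0564.2, the next gene along the chromosome, had 2919 and 2891 RPM in line 1, against 49.1 and 51.6 RPM in N2 (relative log2 6.23 ± 0.15 SE, adjusted p = 9.95e-05), the second largest gain among the genes that the naming rule selected. Its overlap with best-1 and best-2 in a later gene annotation makes the assignment of its reads uncertain, although best-1 itself had 1.23 and 1.46 RPM in line 1, against 0 and 0.262 RPM in N2. The gene on the other side of rde-11, fask-1, had 90.7 and 82 RPM in line 1, against 80.2 and 64.4 RPM in N2, a small gain that passed the test (relative log2 0.67 ± 0.12 SE, adjusted p = 0.0256). The gain was thus large at a pair of adjacent genes and small or near the floor at the genes on either side.

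Beyond rde-11 the gains within the machinery were small. sRNAs mapping to sid-1, the channel that imports double-stranded RNA into cells, were 707 and 615 RPM in line 1, against 480.4 and 440.3 RPM in N2 (relative log2 0.93 ± 0.13 SE, adjusted p = 0.00923). The Argonaute gene wago-2, listed as a pseudogene in the reference table, had 610.1 and 571 RPM in line 1, against 455 and 366 RPM in N2 (relative log2 0.94 ± 0.13 SE, adjusted p = 0.00927). For hrde-4, a gene of heritable RNAi, the values were 404 and 325 RPM in line 1 and 327 and 291 RPM in N2 (relative log2 0.64 ± 0.13 SE, adjusted p = 0.0337). In all 3 genes the groups were close, and in hrde-4 the lower line 1 library lay below the higher N2 library. The calls of sid-1 and wago-2 were lost in RPM as deposited, without the filter on low values and without line 1 replicate 1 or 2, and hrde-4 was called in 6 of 14 alternatives and was not called without line 1 replicate 1 or 2 or N2 replicate 1.

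Most other genes of the pathway were not called. Of 13 tested genes of double-stranded RNA uptake and RNAi, rde-11 and sid-1 were higher and none was lower, and the median relative log2 was 0.11. Of 14 Argonaute genes only wago-2 was called, and of 23 genes of nuclear RNAi and heterochromatin only hrde-4. None of 16 genes for RNA-dependent RNA polymerases and mutator proteins, of 11 genes of the ERI and 26G pathway and of 19 genes of piRNA biogenesis was called in either direction, while in RPM as deposited 1, 2 and 2 of them were lower, and without N2 replicate 2 1 ERI gene was higher. On the centred scale no call was made either for 20 germline RNA regulators, for 28 genes of meiosis and synapsis and for 26 oocyte and eggshell genes. Among 31 genes for P granule proteins meg-4 was the 1 called gene. These 9 lists of the germ line and its sRNA pathways (all but double-stranded RNA uptake) held 167 tested genes, of which 3 were called, 1.80% against 12.3% of all tested genes. The others ranged from -0.57 to 0.62 in relative log2. The list left out held 2 called genes among 13 tested, and 1 of the 3 called here is meg-4, mutated in line 1.

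The gains of largest size were mostly at genes with few sRNAs in N2. Ranking by size of gain favours a low N2 level, so that level is not a result. At mltn-3 they stood at 486 and 882 RPM in line 1, against 3.32 and 1.31 RPM in N2, the highest relative log2 of all tested genes (relative log2 8.10 ± 0.38 SE, adjusted p = 0.000613). The 2 line 1 libraries differed from each other by less than the gap to N2. F41C3.8 had 538 and 585 RPM in line 1, against 12.8 and 11.8 RPM in N2 (relative log2 5.81 ± 0.14 SE, adjusted p = 9.95e-05), and it overlaps F10G7.10, which gained as well. tpk-1, which encodes the thiamine pyrophosphokinase that makes the active form of vitamin B1, had 2299 and 2229 RPM in line 1, against 131 and 86.6 RPM in N2 (relative log2 4.81 ± 0.17 SE, adjusted p = 0.000262). It ranked 29 and 27 among protein-coding genes in line 1, against 823 and 1107 in N2. B0261.8 had 1335 and 1187 RPM in line 1, against 62.7 and 57.1 RPM in N2 (relative log2 4.78 ± 0.12 SE, adjusted p = 9.95e-05), and here too the strains were well apart.

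Spreads between replicates were wider at some of the remaining gains. The F-box gene fbxa-125 had 149 and 471 RPM in line 1, against 11.9 and 17.5 RPM in N2 (relative log2 4.51 ± 0.59 SE, adjusted p = 0.00804), so that line 1 replicate 2 was far above replicate 1 while both exceeded N2. H14A12.5, which overlaps the fumarase gene fum-1, had 114 and 229.7 RPM in line 1, against 11.4 and 9.68 RPM in N2 (relative log2 4.23 ± 0.36 SE, adjusted p = 0.00232). C15F1.8 had 746 and 716 RPM in line 1, against 42 and 61 RPM in N2 (relative log2 4.23 ± 0.25 SE, adjusted p = 0.000837). At C15F1.8 the replicates were close, and at H14A12.5 line 1 replicate 2 was again the higher one. T05G5.1 had 623 and 893 RPM in line 1, against 66.5 and 68.1 RPM in N2 (relative log2 3.86 ± 0.24 SE, adjusted p = 0.000883), and C25D7.5 had 175 and 109 RPM in line 1, against 12.6 and 13.9 RPM in N2 (relative log2 3.70 ± 0.23 SE, adjusted p = 0.000875). gcy-35, a soluble guanylyl cyclase of oxygen-sensing neurons, had 63.7 and 64.9 RPM in line 1, against 6.17 and 3.14 RPM in N2 (relative log2 3.99 ± 0.24 SE, adjusted p = 0.000875), and it overlaps casc-3 and T04D3.5. A few genes were nearly free of sRNAs in N2: Y53H1B.2 had 39.3 and 47.4 RPM in line 1, against 1.42 and 1.57 RPM in N2 (relative log2 4.55), and C45G9.14 had 16.5 and 25.6 RPM in line 1, against 0 and 0.785 RPM in N2 (4.42). pals-27, of a family known from the response to intracellular pathogens, had 34.7 and 38.3 RPM in line 1, against 1.19 and 3.14 RPM in N2 (4.04). Of the 15 largest gains, 12 were called under every alternative that tested them, and Y53H1B.2, C45G9.14 and pals-27 were called in 11 of 13, the exceptions being the fits without line 1 replicate 1 or 2.

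The steepest losses were at genes well above 10 RPM in N2. A loss of this size in log2(RPM + 1) can only be reached from such a level, so that level is not a result. Y54G2A.42, listed as a pseudogene, had 2.21 and 1.95 RPM in line 1, against 116 and 199 RPM in N2 (relative log2 -5.23 ± 0.32 SE, adjusted p = 0.000896). ckk-1 encodes the kinase that activates calmodulin-dependent kinases, and its sRNAs were 9.84 and 15.9 RPM in line 1, against 578 and 612 RPM in N2 (relative log2 -5.05 ± 0.27 SE, adjusted p = 0.000693). It ranked 5525 and 4287 among protein-coding genes in line 1, against 148 and 130 in N2. The cyclin-dependent kinase gene cdk-14 had 7.87 and 4.88 RPM in line 1, against 216 and 211 RPM in N2 (relative log2 -4.48 ± 0.19 SE, adjusted p = 0.000517). In these 3 genes line 1 kept a few percent of the N2 level or less. ndx-2, a Nudix hydrolase gene, had 11.56 and 19 RPM in line 1, against 474 and 446 RPM in N2 (relative log2 -4.45 ± 0.27 SE, adjusted p = 0.000875). At Y20F4.9, which the reference table did not match, line 1 had 30.00 and 50.05 RPM, against 854 and 1205 RPM in N2 (relative log2 -4.27 ± 0.35 SE, adjusted p = 0.00198). kal-1, the worm counterpart of a gene of human Kallmann syndrome, had 2.95 and 3.17 RPM in line 1, against 71 and 116 RPM in N2 (relative log2 -4.09 ± 0.32 SE, adjusted p = 0.00167). In each of them both line 1 libraries were far below both N2 libraries, and lack of overlap was a condition for naming a gene here.

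Further losses were of like size. rimb-1, which encodes a RIM-binding protein of the synaptic active zone, had 3.93 and 2.69 RPM in line 1, against 103 and 102 RPM in N2 (relative log2 -4.20 ± 0.18 SE, adjusted p = 0.000517). gpr-158 had 7.62 and 9.77 RPM in line 1, against 187 and 188 RPM in N2 (relative log2 -3.88 ± 0.19 SE, adjusted p = 0.000613), and the chemoreceptor gene srt-47 had 1.23 and 1.71 RPM in line 1, against 36.8 and 75.1 RPM in N2 (relative log2 -4.04 ± 0.45 SE, adjusted p = 0.00518). Replicates were close in rimb-1 and gpr-158, and the N2 pair was far apart in srt-47. T25D3.3 (-3.92), T05G5.4 (-3.90), Y38F2AR.12 (-3.89) and Y47H9C.9 (-4.11) complete the 15 largest losses with bbs-5 and meg-4. Of these 15, 14 were called under every alternative that tested them and srt-47 in 12 of 13, with the call lost without line 1 replicate 1. Genes that came or went outright were few: 4 genes had at least 10 RPM in both line 1 libraries and under 2 RPM in both N2 libraries, and 19 genes, meg-3 and meg-4 among them, had the reverse. These limits of 10 and 2 RPM were chosen after the values were seen.

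**Figure D2:**
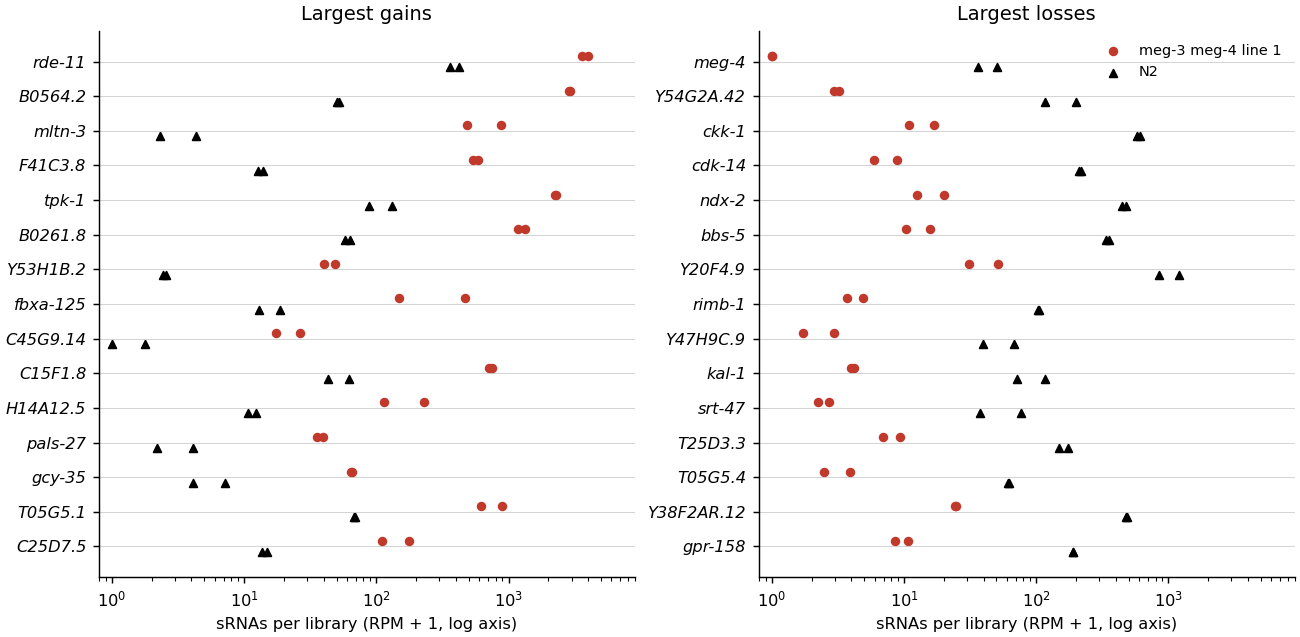
sRNA level in each library, in RPM + 1 on a log axis, of the 15 genes with the largest gains (left) and the 15 with the largest losses (right). Red circles are the 2 libraries of meg-3 meg-4 line 1 and black triangles the 2 of N2, and the genes were chosen so that the strains do not overlap.

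Genes of other signalling pathways lost and gained in both directions, as all tested genes did (6.69% higher and 5.64% lower). In the calmodulin kinase and CREB list, with 6 tested genes, ckk-1 was lower and the CREB-like gene crh-2 was higher, with 203 and 184 RPM in line 1 and 143 and 121 RPM in N2 (relative log2 0.96 ± 0.12 SE, adjusted p = 0.007). Of 15 tested genes of MAP kinase cascades, pmk-2 was higher, and dlk-1 and pmk-3 were lower. dlk-1 encodes a kinase required for the regrowth of cut axons, and had 46.5 and 30.03 RPM in line 1, against 474 and 441 RPM in N2 (relative log2 -3.17 ± 0.19 SE, adjusted p = 0.000873). It overlaps mec-19, so the reads of these 2 genes may be mixed. Of 27 genes of the cell cycle and cytokinesis, cdk-14 and citk-1 were lower and none was higher. Among 9 tested genes named daf, 1 was higher and 2 were lower. daf-25 was the higher one and was called in 3 of 14 alternatives, and without each library in turn it was not called. daf-7, a TGF-beta ligand, had 8.61 and 10.5 RPM in line 1 and 38.9 and 60.2 RPM in N2 (-1.83), and daf-16, the FOXO transcription factor, had 62.2 and 44.4 RPM in line 1 and 186 and 162 RPM in N2 (-1.30). Without line 1 replicate 1 the calls of crh-2, pmk-2, pmk-3, citk-1 and daf-7 were lost, and without line 1 replicate 2 these and that of daf-16. The call of pmk-2 was also lost without N2 replicate 2.

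Tested genes of cilia lost sRNAs more often than they gained them. Of 41 listed ciliary genes in the table only 10 passed the filter on low values. Of these 7 were lower and 1 was higher, while over all tested genes 5.64% were lower and 6.69% higher. The median relative log2 was -1.33, beside 0.07 over all tested genes. The filter admits members through the strain where they are high, and its part in this direction was not tested. bbs-5, a subunit of the BBSome that moves cargo in cilia, had 9.34 and 14.6 RPM in line 1, against 339 and 355 RPM in N2 (relative log2 -4.37 ± 0.26 SE, adjusted p = 0.000873). mks-1, of the transition zone at the base of the cilium, had 16.5 and 14.2 RPM in line 1, against 117 and 150.2 RPM in N2 (relative log2 -2.63 ± 0.21 SE, adjusted p = 0.00169), and the ciliary GTPase gene arl-13 had 29.5 and 24.4 RPM in line 1, against 211 and 229.8 RPM in N2 (relative log2 -2.58 ± 0.16 SE, adjusted p = 0.000875). All 3 fell without overlap of the strains, as did all 385 called losses. dyf-3, needed for the assembly of cilia, had 23.1 and 15.1 RPM in line 1, against 97.8 and 76.4 RPM in N2 (relative log2 -1.74 ± 0.19 SE, adjusted p = 0.00488), and ift-20, a subunit of intraflagellar transport, went the other way with 31.5 and 37.8 RPM in line 1, against 5.46 and 4.97 RPM in N2 (relative log2 2.92 ± 0.22 SE, adjusted p = 0.00165). bbs-5 overlaps inpp-4B, arl-13 overlaps rla-1 and ift-20 overlaps spe-5, so part of their sRNAs may map to the partner gene. The other members in the table were below the filter, most of them with under 2 RPM in every library. bbs-4, nphp-1 and osm-3 were the other members called lower, and the kinesin-II genes klp-11 and klp-20 were not called. Without line 1 replicate 1 the number of ciliary genes called lower was 4, and without each other library in turn it was 5 or 6.

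Lists of somatic tissues had few calls in number, with few members tested, beside 6.69% higher and 5.64% lower over all tested genes. Of 18 tested genes of synaptic release, rimb-1 and egl-21, a carboxypeptidase gene of neuropeptide processing, were lower (-2.07 for egl-21) and none was higher. Of 8 sarcomere and muscle genes, unc-45 was higher (0.59) and unc-68, the ryanodine receptor gene, was lower (-0.95). Of 8 intestine and lysosome genes 7 lay above 0, with a median of 0.97, and none of them was called higher, although 5 were without N2 replicate 2. The acid ceramidase gene asah-1 was lower, with 5.16 and 9.77 RPM in line 1 and 160.2 and 156 RPM in N2 (relative log2 -3.88 ± 0.31 SE, adjusted p = 0.0019). Among 7 peroxisome genes (median 0.39) prx-13 was higher (0.57) and prx-11 was lower, with 17 and 15.9 RPM in line 1 and 369 and 295 RPM in N2 (relative log2 -3.84 ± 0.13 SE, adjusted p = 0.000262). prx-11 overlaps gale-1. Heat shock genes (11 tested) were not called. Among 8 tested sperm genes spe-41 was lower (-0.76), and of 4 early zygotic genes (median -0.65) pes-1 and xol-1 were lower (-1.48 and -1.02). Calls of unc-45 and prx-13 were made in 5 and 3 of 14 alternatives and, among the fits that left out a library, only without N2 replicate 2. Those of unc-68, spe-41, pes-1 and xol-1 were lost without line 1 replicate 1 or 2, and that of spe-41 also without N2 replicate 2.

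Genes for heme and vitamins included large changes in both directions. Of 12 tested, tpk-1 and hrg-9 were higher and hrg-6 and rft-1 were lower. hrg-9, which takes part in heme trafficking, had 92.2 and 114 RPM in line 1, against 6.65 and 14.7 RPM in N2 (relative log2 3.65 ± 0.41 SE, adjusted p = 0.0053). rft-1, a riboflavin transporter gene, had 25.1 and 33.4 RPM in line 1, against 210.3 and 220.4 RPM in N2 (relative log2 -2.44 ± 0.21 SE, adjusted p = 0.00247). hrg-6, a heme-responsive gene, had 0.738 and 2.44 RPM in line 1, against 15 and 24.3 RPM in N2 (relative log2 -2.63 ± 0.57 SE, adjusted p = 0.0397). In RPM as deposited the strains did not overlap in any of the 4 genes, as in 4476 of the 6821 tested genes. The calls of hrg-9 and hrg-6 were lost without line 1 replicate 1, and that of hrg-6 also without line 1 replicate 2 or N2 replicate 2. Of 12 tested targets of the ERGO-1 class, whose sRNAs in wild-type worms depend on the Argonaute ERGO-1, F55C9.5 was higher (0.66), and C08F11.7 and F39F10.4 were lower. C08F11.7 had 92 and 58.3 RPM in line 1, against 413 and 448 RPM in N2 (relative log2 -2.13 ± 0.21 SE, adjusted p = 0.00405). The median of this list was 0.47. The calls of F55C9.5 and F39F10.4 were lost without line 1 replicate 1 or 2.

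Large gene families differed in the direction of their calls. Over all tested genes 6.69% were called higher and 5.64% lower. The bath genes encode proteins with BTB and MATH domains, which serve as adaptors of ubiquitin ligases, and 8 of 25 tested members were higher and 1 was lower (median 0.36). In RPM as deposited 5 were higher and 3 were lower, with a median of -0.04. bath-24 had 2407 and 2158 RPM in line 1, against 873 and 693 RPM in N2 (relative log2 1.96 ± 0.14 SE, adjusted p = 0.00129), bath-15 had 431 and 343 RPM in line 1, against 131 and 109 RPM in N2 (relative log2 2.09 ± 0.13 SE, adjusted p = 0.000953), and bath-1 had 189 and 177 RPM in line 1, against 95.6 and 88.2 RPM in N2 (relative log2 1.39 ± 0.12 SE, adjusted p = 0.00246). These 3 were called in all 14 alternatives. The 1 lower member was bath-28, with 48.4 and 40.5 RPM in line 1 and 98.5 and 105 RPM in N2 (relative log2 -0.78 ± 0.15 SE, adjusted p = 0.0292). Without line 1 replicate 1 or 2 the number higher was 3 or 4, and bath-28 was not called.

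F-box proteins are the substrate-binding parts of ubiquitin ligases and form large families in worms. Of 109 listed fbxb genes 28 were tested, of which none was higher and 7 were lower, with a median of -0.48. Some members, fbxb-98 among them, averaged below 10 RPM in line 1 and passed the filter through N2 alone. The part of this in the direction of the family was not tested. fbxb-98 had 3.93 and 7.08 RPM in line 1 and 27.3 and 39 RPM in N2 (relative log2 -2.01 ± 0.38 SE, adjusted p = 0.026), and fbxb-7 had 34.2 and 23.9 RPM in line 1 and 133 and 79.3 RPM in N2 (relative log2 -1.40 ± 0.23 SE, adjusted p = 0.0171). Of 16 fbxc genes 3 were higher and 6 were lower. The 3 higher members were fbxc-43, fbxc-44 and fbxc-45, of which fbxc-44 had 193 and 176 RPM in line 1, against 68.8 and 72.8 RPM in N2 (relative log2 1.78 ± 0.14 SE, adjusted p = 0.00192) and fbxc-43 had 1695 and 1645 RPM in line 1, against 1264 and 1151 RPM in N2 (relative log2 0.88 ± 0.14 SE, adjusted p = 0.014). Of 57 fbxa genes 4 were higher and 8 were lower, with a median of 0.03 and a span of relative log2 that covered -3.11 at fbxa-216 and 4.51 at fbxa-125. The share of fbxa gains was near the 6.69% of all tested genes. fbxa-216 had 7.87 and 5.86 RPM in line 1, against 91.4 and 84.8 RPM in N2 (relative log2 -3.11 ± 0.16 SE, adjusted p = 0.000613). Without line 1 replicate 1 or 2 the losses numbered 1 in each case for fbxb, 0 for fbxc and 2 for fbxa, and without N2 replicate 1 they numbered 3, 1 and 10. Of the genes named here, fbxb-98 was not called without line 1 replicate 1, and fbxb-7 and fbxc-43 were not called without line 1 replicate 1 or 2. The fbxa gains numbered 1 without either line 1 library and 15 without N2 replicate 2, and in RPM as deposited the losses numbered 18 for fbxb and 19 for fbxa. Near-identical copies within these families could share reads, and how the authors counted those is not given in the sources used here.

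Collagens, receptors and C-type lectins form large gene families in worms. Their counts stand beside 6.69% called higher and 5.64% called lower over all tested genes. Of 157 listed collagen (col) genes 9 were tested, and 3 of these were lower, none higher (median -0.60). col-111 had 16 and 30.8 RPM in line 1, against 349 and 357 RPM in N2 (relative log2 -3.52 ± 0.34 SE, adjusted p = 0.00347), and col-38 had 6.89 and 10.01 RPM in line 1, against 52 and 62 RPM in N2 (relative log2 -2.23 ± 0.27 SE, adjusted p = 0.00652). The cuticle gene col-111 overlaps psr-1. Without N2 replicate 1 the number of col genes called lower was 5, and without any other library it was 2. Of 37 nuclear hormone receptor (nhr) genes 5 were lower and 2 were higher. Without line 1 replicate 1 or 2 the losses numbered 1 or 2 and the gains 0, and without N2 replicate 1 the gains also numbered 0. nhr-15 was well covered in both strains, with 356 and 381 RPM in line 1 and 1159 and 1119.5 RPM in N2 (relative log2 -1.22 ± 0.15 SE, adjusted p = 0.00673), and nhr-64 had 9.10 and 4.88 RPM in line 1, against 90.9 and 83.8 RPM in N2 (relative log2 -3.11 ± 0.24 SE, adjusted p = 0.00165). Of 13 C-type lectin (clec) genes 3 were lower and none was higher, led by clec-12 (-2.47), while the family median was 0.26. The losses numbered 1 without line 1 replicate 1, line 1 replicate 2 or N2 replicate 1, and without N2 replicate 2 there were 2 gains and 2 losses. Chemoreceptor families had 18 tested members of 1301 in the table, of which 2 were lower and 1 was higher. Some genes named here, such as col-38 and nhr-64, averaged below 10 RPM in line 1 and passed the filter through N2 alone.

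Among homeobox (ceh) genes 2 of 12 were higher and 2 were lower, and without line 1 replicate 1 these were 1 and 0, with ceh-43 among the lost calls, and without line 1 replicate 2 they were 2 and 1. ceh-20, the Pbx-like cofactor of Hox proteins, had 1015 and 1016 RPM in line 1, against 297 and 274 RPM in N2 (relative log2 2.24 ± 0.13 SE, adjusted p = 0.000858), and ceh-43, a Distal-less homologue, had 4.18 and 5.37 RPM in line 1, against 32.8 and 45.3 RPM in N2 (relative log2 -2.38 ± 0.30 SE, adjusted p = 0.0072). Of 22 SET-domain genes 3 were higher and 1 was lower: set-23 had 636 and 624 RPM in line 1, against 283 and 253 RPM in N2 (relative log2 1.64 ± 0.13 SE, adjusted p = 0.00165), and the listed pseudogene set-33 had 0.984 and 1.22 RPM in line 1, against 12.3 and 28.5 RPM in N2 (relative log2 -2.83 ± 0.59 SE, adjusted p = 0.0345). The SET-domain genes had 1 gain and no loss without line 1 replicate 1 or 2, and set-33 was not called without N2 replicate 2 either. The calls were all gains at 3 of 16 Mediator (mdt) genes, 3 of 8 DEAD-box helicase (ddx) genes and 3 of 34 genes for mitochondrial ribosomal proteins of the large subunit (mrpl). Of all tested genes 6.69% were called higher and 5.64% lower. The largest of these gains were mdt-11 (1.26), ddx-10 (0.70) and mrpl-36 (1.34). None of the 3 families had a call without line 1 replicate 1, and without line 1 replicate 2 only 1 mrpl gene did. In RPM as deposited mdt had 1 gain, ddx no call and mrpl 1 gain and 1 loss. Cytosolic ribosomal protein genes, 38 rpl and 29 rps genes, had 1 call, the loss of rpl-11.2 (6.64 and 6.35 RPM in line 1 and 20.2 and 22 RPM in N2, relative log2 -1.15 ± 0.23 SE, adjusted p = 0.0317), a call lost without line 1 replicate 1, line 1 replicate 2 or N2 replicate 2.

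The snoRNA, linc, microRNA and piRNA genes had medians above that of all tested genes. Their calls stand beside 6.69% higher and 5.64% lower over all tested genes. Of 75 tested genes for small nucleolar RNAs (snoRNAs), which guide the modification of ribosomal RNA, 21 were higher and none was lower, with a median relative log2 of 0.68. ZK185.9 had 488 and 423 RPM in line 1, against 108 and 84 RPM in N2 (relative log2 2.65 ± 0.13 SE, adjusted p = 0.000613), and C14E2.12 had 63.7 and 57.4 RPM in line 1, against 14 and 12.8 RPM in N2 (relative log2 2.50 ± 0.13 SE, adjusted p = 0.000693). snoRNA genes took 0.871 and 0.942% of reads in line 1 and 0.591 and 0.711% in N2. rpr-1, the RNA component of ribonuclease P, had 390.2 and 769.5 RPM in line 1, against 59.3 and 60.7 RPM in N2 (relative log2 3.58 ± 0.36 SE, adjusted p = 0.00398). Of 34 long intervening noncoding (linc) genes 7 were higher and 1 was lower (median 0.56). linc-6 had 2299 and 1729 RPM in line 1, against 629 and 444 RPM in N2 (relative log2 2.32 ± 0.18 SE, adjusted p = 0.00167), and linc-32, the lower one, had 3.44 and 4.15 RPM in line 1, against 20.4 and 27.2 RPM in N2 (relative log2 -1.95 ± 0.32 SE, adjusted p = 0.017). Reads from short pieces of the noncoding RNA itself and sRNAs made against it were not told apart, since the strand setting is not given in the sources used here. The number of snoRNA genes called higher was 3 without line 1 replicate 1, 4 without replicate 2, 15 without N2 replicate 1 and 49 without N2 replicate 2. For linc genes it was 1, 1, 9 and 15 in the same order, and linc-32 was not called without line 1 replicate 1 or 2.

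Most microRNA genes lay above the median gene, and most were not called. Of 107 tested, 103 lay above 0 in relative log2 (4047 of all 6821 genes did), and the median was 0.80. Of the 107, 11 (10.3%) were called higher and 1 (0.935%) lower, beside 6.69% and 5.64% over all tested genes. mir-246 had 4272 and 5185 RPM in line 1, against 2807 and 3101 RPM in N2 (relative log2 1.08 ± 0.22 SE, adjusted p = 0.0311), and mir-2209a had 68.4 and 32 RPM in line 1, against 24 and 18.8 RPM in N2 (relative log2 1.51 ± 0.31 SE, adjusted p = 0.0337). mir-257 was the lower one, with 4.92 and 9.77 RPM in line 1 and 38.2 and 57.8 RPM in N2 (relative log2 -2.18 ± 0.41 SE, adjusted p = 0.0256). By family the medians were 0.85 for 8 tested members of the let-7 and lin-4 families, 0.63 for 5 of the mir-51 family and 0.10 for 7 of the mir-35 family, and none of these was called. The count of called gains turned on the libraries used: it was 0 without line 1 replicate 1, 1 without replicate 2, 8 without N2 replicate 1 and 78 without N2 replicate 2. With TMM scaling it was 40. The call of mir-246 was lost without line 1 replicate 1 or 2 or N2 replicate 1, and those of mir-2209a and mir-257 without line 1 replicate 1.

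piRNAs, the 21U-RNAs that survey germline transcripts, had a smaller median shift than microRNA and snoRNA genes. Of 383 tested 21ur genes 351 lay above 0 (4047 of all 6821 genes did), with a median of 0.33. Of the 383, 9 (2.35%) were called higher and 1 (0.261%) lower, both shares below the 6.69% and 5.64% over all tested genes. 21ur-3727 had 98.1 and 80.3 RPM in line 1 and 71 and 47.9 RPM in N2 (relative log2 1.01 ± 0.17 SE, adjusted p = 0.018), and 21ur-15630, the lower one, had 8.61 and 7.08 RPM in line 1 and 43.2 and 42.7 RPM in N2 (relative log2 -1.91 ± 0.17 SE, adjusted p = 0.00247). As a share of reads piRNA genes took 2.60 and 2.51% in line 1 and 2.60 and 2.84% in N2. The called gains numbered 0 without either line 1 library, 7 without N2 replicate 1 and 38 without N2 replicate 2, while the loss of 21ur-15630 was called in all 13 alternatives that tested it. In RPM as deposited no piRNA gene was called higher and 3 were called lower, with a median of -0.08.

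**Figure D3:**
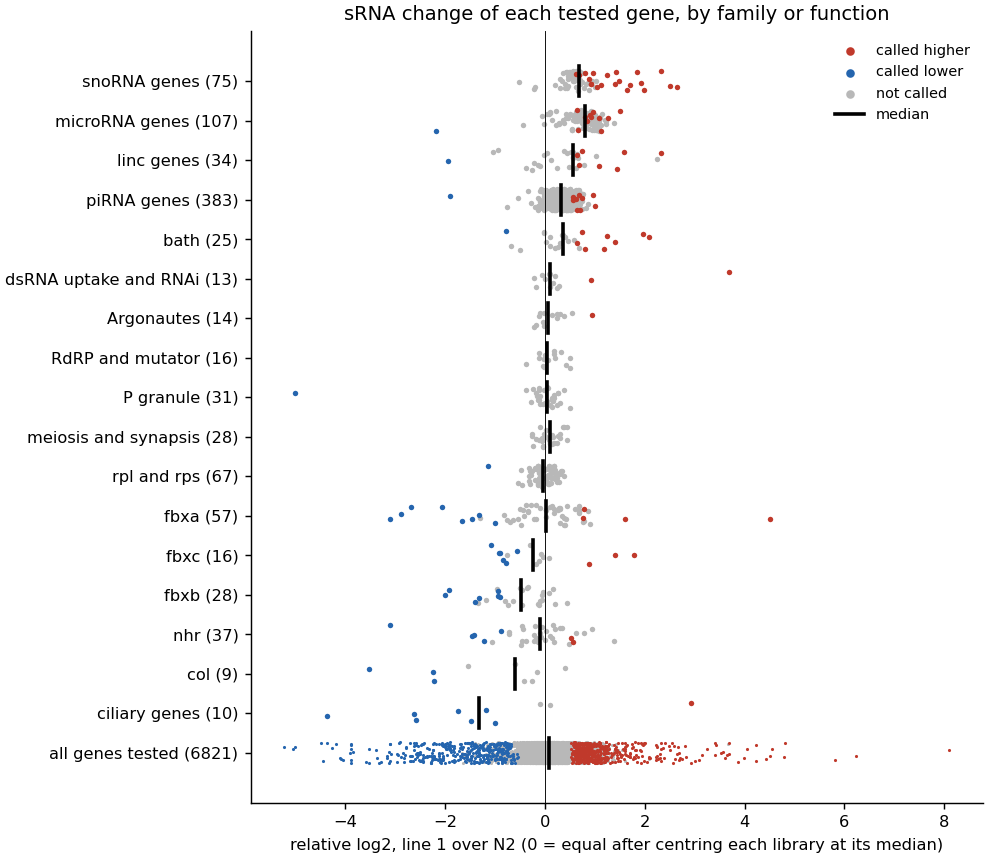
Relative log2 of sRNAs, line 1 over N2, for each tested gene (point) of the families and lists named on the vertical axis, with the number tested in brackets and a black bar at the median. Red points were called higher and blue points lower, the lists of Argonautes, RdRP and mutator genes and meiosis lie close to 0, and the 7 called losses of the ciliary list reach -4.37 at bbs-5.

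The title of the study also speaks of lower mRNA at RNAi genes with more sRNAs, and the mRNA libraries allow the same genes to be followed. The mRNA libraries came from young mothers on HT115-L4440, not from the mixed populations whose sRNAs are described above, so that each gene's 2 readouts differ in stage and food as well as in assay. Values are a size-factor scaled signal. The libraries held 21.99 and 44.9 M reads in line 1 and 45.2 and 44.3 M in N2. Of 7616 genes tested, 412 (5.41%) were higher in line 1 and 169 (2.22%) were lower. The share of gains among the calls was 70.9%, against 28.8% for the signal as deposited (318 higher, 785 lower) and 40.8% with TMM scaling (294 and 426). meg-4 mRNA was at 0 and 0 in line 1, against 45.3 and 43.6 in N2, at least 893-fold lower with 3 reads over the line 1 pair as the floor. Summed markers of tissue were given by yolk genes, with 18664 and 23128 in line 1 and 16050 and 16538 in N2, and by oocyte and eggshell genes, with 9017 and 9113 in line 1 and 11090 and 10615 in N2. Of 10 oocyte and eggshell markers 1 was called lower, and of 3 muscle markers 1 was called higher. Among sperm, yolk, neuron and intestine markers none was called, and no listed marker was at 0 in all 4 libraries. The part of tissue makeup in the mRNA results was not tested.

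Higher mRNA was found at a number of genes that had lost sRNAs. Of the 385 genes with called losses 112 reached the mRNA filter, and 26 of them (23.2%) had higher mRNA in line 1 and 4 (3.57%) had lower mRNA. Over all 4720 genes tested in both readouts, 2.71% had higher mRNA. The median mRNA relative log2 was 0.23 for these 112 genes and -0.07 over the 4720. Of the 456 genes with called gains 245 reached the filter. Of these 29 (11.8%) had lower mRNA and 18 (7.35%) had higher mRNA, beside 2.75% and 2.71% over the 4720. Both directions were thus more frequent than over all genes, and the median of -0.09 was close to the -0.07 over the 4720. Reaching the filter was uneven: 29.1% of the losses, 53.7% of the gains and 73.0% of the genes not called did so. The filter is a mean over all 4 mRNA libraries, so it admits genes through the strain where their mRNA is high. Among the 26, scrm-4 (2.28 and 1.92), F28F8.7 (5.85 and 6.12) and Y20F4.4 (7.01 and 6.75) were below 10 in both N2 libraries. Among the 29, rde-11 (8.28 and 9.64) was below 10 in both line 1 libraries. The part of the filter in these counts was not tested. These counts rested on both N2 mRNA libraries: without N2 replicate 1 they were 3 (sRNAs lower, mRNA higher) and 4 (sRNAs higher, mRNA lower), without N2 replicate 2 they were 5 and 5, and the first was 40 without line 1 replicate 1.

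At rde-11 and B0564.2 mRNA was lower where sRNAs were higher. rde-11 mRNA was 8.28 and 9.64 in line 1, against 30.1 and 30.8 in N2 (relative log2 -1.58 ± 0.10 SE, adjusted p = 0.00086), and B0564.2 mRNA was 3.83 and 4.88 in line 1, against 20.5 and 23.6 in N2 (relative log2 -2.03 ± 0.13 SE, adjusted p = 0.00101). wago-2 mRNA was 54.1 and 62.8 in line 1, against 147 and 146 in N2 (relative log2 -1.24 ± 0.08 SE, adjusted p = 0.00101). The strains were far apart in all 3 genes, and all 3 were called without any of the 4 libraries in turn. sid-1 mRNA was 40.03 and 43.6 in line 1, against 62.4 and 63.6 in N2 (relative log2 -0.50 ± 0.07 SE, adjusted p = 0.0161), and this call was lost without either N2 library. F10E7.2, whose sRNAs rose by 0.81 in relative log2, had mRNA of 6.28 and 7.63 in line 1, against 24.6 and 23.9 in N2 (relative log2 -1.59 ± 0.11 SE, adjusted p = 0.00145). fbxc-44 mRNA was 26.2 and 25.6 in line 1, against 49.5 and 56.2 in N2 (relative log2 -0.92 ± 0.07 SE, adjusted p = 0.00291). linc-6, bath-15 and set-23, with large sRNA gains, had mRNA changes of -0.77, -0.52 and -0.48, and these 3 calls were lost without either N2 library, as that of F10E7.2 was without N2 replicate 1. Not every gene with an sRNA gain had a called mRNA change: hrde-4 (-0.20) and B0261.8 (-0.21) were tested as mRNA and not called. mltn-3 and tpk-1 were below the mRNA filter and not tested. Their mRNA was 0.668 and 1.66 (mltn-3) and 2.63 and 3.31 (tpk-1) in line 1. In N2 it was 0.669 and 1.25 (mltn-3) and 6.25 and 6.47 (tpk-1).

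Among genes with fewer sRNAs the mRNA gains were led by scrm-4, a gene for a phospholipid scramblase. Its sRNAs were 22.6 and 30.8 RPM in line 1, against 127 and 148 RPM in N2 (relative log2 -1.92 ± 0.24 SE, adjusted p = 0.00714), and its mRNA was 29.7 and 32.4 in line 1, against 2.28 and 1.92 in N2 (relative log2 3.45 ± 0.11 SE, adjusted p = 9.16e-05). citk-1, which encodes a kinase related to citron kinase of cytokinesis, had sRNAs of 91.7 and 87.4 RPM in line 1, against 244 and 219.6 RPM in N2 (relative log2 -0.95 ± 0.12 SE, adjusted p = 0.00729; lost without line 1 replicate 1 or 2), and mRNA of 177 and 175 in line 1, against 39.1 and 39.4 in N2 (relative log2 2.22 ± 0.05 SE, adjusted p = 1.36e-05). pmk-3, a p38 MAP kinase gene, had sRNAs of 151 and 107 RPM in line 1, against 487 and 383 RPM in N2 (relative log2 -1.35 ± 0.17 SE, adjusted p = 0.00677; lost likewise), and mRNA of 37.9 and 40.5 in line 1, against 12.1 and 12.9 in N2 (relative log2 1.66 ± 0.08 SE, adjusted p = 0.000309). In each of these 3 genes neither readout overlapped between the strains, which for sRNAs held at all 385 called losses. F28F8.7 (1.48), Y20F4.4 (1.09), ugt-64 (0.91), glit-1 (0.78) and egl-30, the Gq alpha subunit gene (0.65), were further mRNA gains. The call was lost without N2 replicate 1 for all 5 of these, and also without N2 replicate 2 for all but F28F8.7. Many of the steepest sRNA losses had no mRNA test, as ckk-1, bbs-5, cdk-14, ndx-2 and rimb-1 were below the filter. dlk-1 (0.45), asah-1 (0.05) and prx-11 (-0.01) were tested and not called.

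Some genes moved the same way in both readouts. pmk-2, a further p38 gene and the neighbour of pmk-3, had slightly more sRNAs in line 1 (26.1 and 22.2 RPM, against 21.6 and 13.9 RPM in N2, relative log2 0.86 ± 0.19 SE, adjusted p = 0.0445) and mRNA of 24 and 26.8 in line 1, against 5.40 and 5.45 in N2 (relative log2 2.12 ± 0.10 SE, adjusted p = 0.000309). Its sRNA call was made in 4 of 13 alternatives. The fatty acid amide hydrolase gene faah-2 had sRNAs of 48.4 and 48.1 RPM in line 1, against 8.78 and 2.88 RPM in N2 (relative log2 3.41 ± 0.38 SE, adjusted p = 0.0053), and mRNA of 143 and 97.2 in line 1, against 51 and 48.9 in N2 (relative log2 1.31 ± 0.17 SE, adjusted p = 0.0148), a call lost without either N2 library. sax-2 (mRNA 1.34), F10G7.10 (1.15), the autophagy gene epg-5 (1.02) and unc-73 (0.83) were also higher in both. Apart from meg-4, the 3 genes lower in both were nhr-70, Y69H2.7 and ints-5, the last with mRNA of 36.3 and 35.9 in line 1, against 60.3 and 53.8 in N2 (relative log2 -0.56 ± 0.08 SE, adjusted p = 0.0193), lost as a call without either N2 library.

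**Figure D4:**
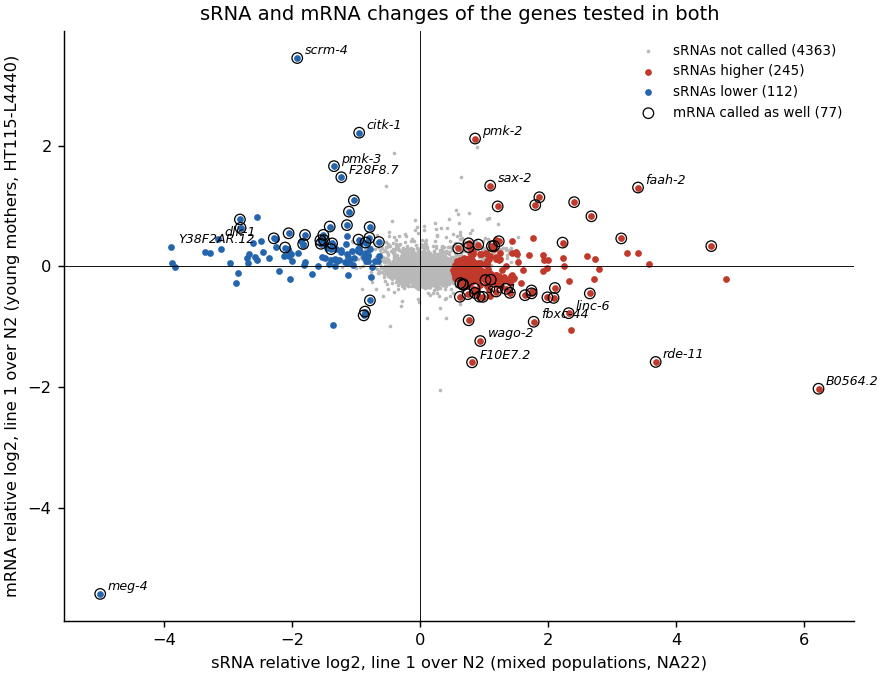
Relative log2 of mRNA in young mothers (vertical axis) against that of sRNAs in mixed populations (horizontal axis), line 1 over N2, for the 4720 genes tested in both. Red and blue points had sRNAs called higher (245) or lower (112), black rings mark the 77 of these whose mRNA was called as well, rde-11 and B0564.2 lie at the lower right, and scrm-4, citk-1 and pmk-3 at the upper left.

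Some called genes lay beside each other. Of 304 protein-coding genes with gains that had a tested neighbour, 49 (16.1%) had a neighbour with a called gain, beside 9.47% of all tested protein-coding genes. Of 217 with losses 44 (20.3%) had a neighbour with a called loss, beside 5.96%. For overlap of annotated genes the shares were alike: 30.3% of the gains and 25.8% of the losses overlapped another protein-coding gene, and 29.2% of the genes not called did. Adjacent gains included rde-11 with B0564.2, fbxc-43 with fbxc-44 and pde-1 with gcy-35. Adjacent losses included Y47H9C.9 with fbxa-216, math-48 with ZK250.2, and fbxa-170 with meg-4, which is itself mutated in line 1. Any part of the meg-4 allele in the loss at fbxa-170 was not tested. mltn-3 and citk-1 are neighbours that went opposite ways, and mltn-5 on the other side of mltn-3 had 2.95 and 7.08 RPM in line 1, against 0.475 and 0 RPM in N2. At pmk-2 and pmk-3, likewise neighbours, sRNAs were called higher in line 1 in the first and lower in the second, while the mRNA of both was higher. Neighbours were read from the order of genes in a later build than the one used for counting.

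**Figure D5:**
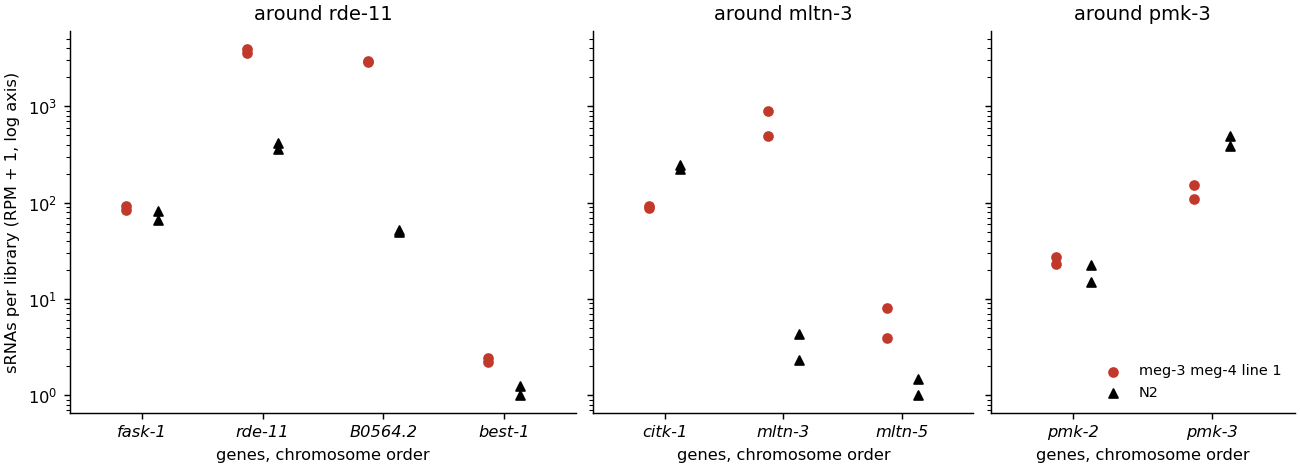
sRNA level in each library, in RPM + 1 on a log axis, of neighbouring genes around rde-11, mltn-3 and pmk-3, in their order along the chromosome. Red circles are meg-3 meg-4 line 1 and black triangles N2. rde-11 and B0564.2 were far higher in line 1, fask-1 was called higher by a small amount, and best-1 was near the floor in both strains.

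For the same genes in lines 2, 3 and 4 the deposited RPM are given beside those of line 1. All 4 lines were set against the same 2 N2 libraries, and differences between lines were not tested. rde-11 had 3962 and 3573 RPM in line 1, 1569 and 1663 RPM in line 2, 816 and 1023 RPM in line 3 and 1914 and 1908 RPM in line 4, against 418 and 359 RPM in N2. B0564.2 had 2919 and 2891 RPM in line 1, 431 and 666 RPM in line 2, 269.8 and 479 RPM in line 3 and 806 and 696 RPM in line 4, against 49.1 and 51.6 RPM in N2. Line 1 was the highest of the lines in both genes. For sid-1 line 3 was the highest, with 707 and 615 RPM in line 1, 762 and 728 RPM in line 2, 2864 and 2778 RPM in line 3 and 703 and 707 RPM in line 4, against 480.4 and 440.3 RPM in N2. T05G5.1 had 623 and 893 RPM in line 1, 201 and 190.2 RPM in line 2, 40.04 and 57 RPM in line 3 and 454 and 388 RPM in line 4, against 66.5 and 68.1 RPM in N2, so that line 3 was below N2. H14A12.5 had 114 and 229.7 RPM in line 1, 17.3 and 18.5 RPM in line 2, 74.3 and 59.9 RPM in line 3 and 13 and 14 RPM in line 4, against 11.4 and 9.68 RPM in N2. Here lines 1 and 3 stood above lines 2 and 4. pmk-3 had 151 and 107 RPM in line 1, 387 and 349 RPM in line 2, 325 and 346 RPM in line 3 and 385 and 348 RPM in line 4, against 487 and 383 RPM in N2, with line 1 the lowest. At ckk-1 the 4 lines were close to each other: it had 9.84 and 15.9 RPM in line 1, 12.3 and 14 RPM in line 2, 9.90 and 14.8 RPM in line 3 and 9.78 and 8.0 RPM in line 4, against 578 and 612 RPM in N2.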

How the data were processed

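Small RNAs were measured in 2 libraries each of meg-3 meg-4 line 1 and N2, and mRNA in 2 libraries each of young mothers. The submitters' processing notes name the aligners Bowtie2 and HISAT2, the trimmer cutadapt, the counter HTSeq, DESeq2 and build ce10. The annotation, strand setting and handling of multiply mapped reads are not given in the sources used here. The sRNA values are RPM that the authors deposited, summing to 1000000 per library. The mRNA values are a signal that the authors deposited, which came out as read counts divided by a size factor. Whole reads were recovered from both, with 100% of values within 0.02 of a whole number. The authors' deposited table also holds log2 fold changes and p-values, used only as a count: it calls 829 of 9839 genes with an adjusted p (367 higher, 462 lower).

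Genes whose 4 libraries averaged 10 or more were tested with limma 3.58.1 (R 4.3.3, mean trend) on log2(value + 1), each library centred at the median of its tested genes, with Benjamini-Hochberg adjustment over all tested genes and calls at an adjusted p below 0.05. A difference on this scale understates the change of low genes. The members just inside the filter were Y59A8B.8 (mean 10.003) and crh-1, and just outside it sipa-1 and 21ur-3588. Alternatives were values as deposited, TMM scaling, edgeR 4.0.16 and DESeq2 1.42.0 on recovered reads, other pseudocounts and filters, each library left out, and the replicate number as a block. On simulated data the sRNA fit recovered 84.2% of 95 genes changed 2-fold and 100% of those changed 4-fold, with 1.70% of calls false, and the mRNA fit 100% of both with 6.28% false. The simulated libraries were independent, with 1 spread for all genes and as many gains as losses. In the real sRNA libraries, deviations of same-numbered libraries correlated at 0.51, so these false shares do not carry over to the real calls.

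The text names meg-3, meg-4, rde-11, B0564.2 and sid-1, the 15 gains and 15 losses of largest size with at least 10 RPM in both libraries of the higher strain and no overlap, and up to 4 called genes in each direction per list, family of at least 8 tested genes or biotype. Genes called in both readouts, neighbours, and genes set beside them were chosen after their values were seen. Members and lists were chosen with earlier results of these data known. Biotypes, overlaps and neighbours come from the RefSeq gene table of the organism, whose symbols matched 98.5% of genes in the table. Other libraries of the study were not analysed here, except lines 2 to 4 as deposited RPM.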

Additional observations from a re-analysis of the deposited data

Results flagged for a closer look

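npp-1, which encodes a nuclear pore protein, lay above both N2 libraries in line 1 and below both in lines 2 to 4, in RPM as deposited. Its sRNAs were 165 and 151 RPM in line 1, 108 and 113 RPM in line 2, 111 and 140 RPM in line 3 and 106 and 115 RPM in line 4, against 147 and 140 RPM in N2. The higher library of line 3 differed from the lower N2 library by less than 1 RPM. In line 1 the relative log2, after centring, was 0.545, a scale on which lines 2 to 4 were not computed, and npp-1 was called in 3 of 14 alternatives. The 4 lines share the N2 libraries, and the difference between lines was not tested.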

How the results depend on the processing

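Counts of called genes moved with the settings, and no gene named as called changed sign. The sRNA gains outnumbered the losses with centring (456 and 385), the other pseudocounts, the filter of 50, the block and without N2 replicate 2, and were fewer in every other alternative, TMM (433 and 526), edgeR (322 and 407) and DESeq2 (336 and 382) included. The mRNA gains were fewer as deposited, with TMM, with the filter of 1 and with no filter. As deposited, the medians of the piRNA and bath genes were below 0, though above that of all genes. The sRNA gains (456) were 207 in RPM as deposited, 271 with a minimum mean of 50 and 184 with no filter, and 67 to 786 when each library was left out. The sRNA losses (385) were 939 as deposited, 230 with a minimum of 50, and 118 to 398 with each library left out. The mRNA gains (412) were 830 with DESeq2, 242 with a minimum of 1, and 28 to 812 with each library left out. The mRNA losses (169) were 785 as deposited, 426 with TMM scaling, 304 with a minimum of 1, 106 with a minimum of 50, 1334 with no filter, and 12 to 260 with each library left out. Settings of the next counts were chosen after seeing the data. Genes with fewer sRNAs and higher mRNA (26) were 41 with DESeq2, 9 with a minimum of 50, and 3 to 40 with each library left out. Genes with more sRNAs and lower mRNA (29) were 64 as deposited, 45 with TMM, 10 with a minimum of 50, 86 with no filter, and 4 to 34 with each library left out. The cause of these moves was not tested.

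Replicate numbers are shared between the strains but the labels do not say that they pair. Deviations of same-numbered libraries correlated at 0.51 for sRNAs and 0.23 for mRNA, over only 2 pairs. With the replicate number as a block the sRNA calls were 1255 higher and 696 lower, and the mRNA calls 774 and 250, and 27 of 54 list counts moved by over 1.5 times: of lists without a call, polymerase and mutator genes had 3 higher, ERI genes 2 higher and piRNA biogenesis genes 1 higher and 1 lower. Of the 196 genes named by rule and called, all were also called with the block, 166 with edgeR, 161 with DESeq2, 144 as deposited, 72 without line 1 replicate 1 and 88 without line 1 replicate 2. At 10 RPM a gene rests on 38.2 to 42.1 reads a library, and how detection varies with level was not tested.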

Other observations

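Pseudogenes and unmatched genes had calls in both directions, as all tested genes did (6.69% higher and 5.64% lower). Of 72 tested pseudogenes 4 were higher and 10 were lower in line 1 relative to the median gene, and of 83 genes that the reference table did not match 9 were higher and 13 were lower. The pseudogene F52C6.14 had 54.3 and 84.7 RPM in line 1, against 312 and 407 RPM in N2, and dct-10 had 134 and 157 RPM in line 1, against 509 and 774 RPM in N2. In the other direction the listed pseudogene bath-23 had 583 and 537 RPM in line 1, against 426 and 431 RPM in N2. In RPM as deposited the strains did not overlap in these 3 genes, as in 4476 of the 6821 tested genes.

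A few further runs of neighbours moved together. Y94H6A.12 and Y94H6A.7, adjacent on the chromosome, gained 2.83 and 1.95 in relative log2, and Y94H6A.10 beside them gained 0.81. T23G11.11 and T23G11.1 gained 2.55 and 2.61. These neighbours were named after their values were seen, and their part in any larger region was not tested.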
